A study of Mus musculus with 32 samples.

Results

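The 7 sirtuin genes of the mouse, Sirt1 to Sirt7, were followed in gastrocnemius, a mixed hindlimb muscle. They were chosen by symbol from 16634 gene entries of the deposited table, and all 7 were present and passed the filter that left 11975 entries for testing (at least 1 FPKM in at least 4 libraries). RNA was measured in 32 mice on a mixed genetic background, aged 10 weeks, with 4 mice in each of 8 groups. Mutant mice are labelled Sf1-Cre; Sirt1loxP/loxP. Controls are labelled as such only, and the series description gives them the same floxed Sirt1 alleles without Cre. Both genotypes were sampled at Zeitgeber times ZT0, ZT6, ZT12 and ZT18, which count hours from lights on.

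The series description places the deletion in SF1 neurons, which lie in the hypothalamus, so the gene was targeted outside the tissue that was sequenced. The Sf1 promoter is also known to be active in the pituitary, the adrenal gland and the gonads. The muscle level of Sirt1 therefore does not check the deletion, and a value for the whole gene would not resolve a lost exon. No group carried Cre alone, so effects of Cre and of the lost gene cannot be told apart. The study asks, from its design, how loss of SIRT1 in these neurons bears on the daily course of RNA in muscle.

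Sirtuins are enzymes that use NAD as a co-substrate to remove acyl groups from lysines, so their activity follows the supply of NAD as well as their own amount. SIRT1, SIRT6 and SIRT7 act mainly in the nucleus, SIRT2 mainly in the cytoplasm, and SIRT3, SIRT4 and SIRT5 in mitochondria. In muscle the family is known for links to fuel choice, mitochondrial metabolism and the daily clock. The levels below are FPKM, reads scaled by transcript length and library total, and every value is RNA, not protein or activity.

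Clock proteins bind the E-box, written CACGTG, and the daily course of the family is one of the questions here. RefSeq promoter windows (GRCm38.p6, from 250 bases before to 50 bases after each start, 9 windows for the 7 genes) were therefore searched on both strands for 7 short motifs. An E-box was found in 1 of the 9 windows, that of Sirt1, where it occurred 2 times, 115 and 43 bases before the start. Of all 32851 windows, 7.15% held one. The lines below show both Sirt1 sites on the minus strand, at chr10:63339135-63339160 and chr10:63339063-63339088. The line after them shows the only NRF1 motif of the family, with any base allowed at the fifth of its capital letters, which lies in a Sirt6 window at chr10:81627690-81627719, also on the minus strand. NRF1 is a regulator of nuclear genes for mitochondria, and 4.6% of all windows held its motif. Capitals mark the motif, and neither E-box overlapped another motif that was searched.
Sirt1 distal E-box: ggcgcccggcCACGTGacccggcgtg
Sirt1 proximal E-box: aggggcgggtCACGTGacggggttta
Sirt6 NRF1 motif: catcaggaggGCGCATGCGCtctggaaaga
The D-box TTATGNAA, the cyclic AMP response element TGACGTCA and the FOXO motif GTAAACA were in none of the 9 windows and in 3.38%, 1.79% and 3.65% of all windows. The GC box GGGCGG was in 6 of the 9 windows, against 35.7% of all, and CCAAT was in 3, against 37.4% of all. The Sirt1 window held 79% G and C, above the median of 52.7% over all windows. These matches describe letters and are not measurements of binding.

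The mitochondrial and cytoplasmic members were the most abundant. Sirt2, which encodes a deacetylase of tubulin and other proteins, had the highest level with 46.5 ± 7.33 FPKM (SD, n = 32), at percentile 89.1 of the genes tested. Sirt3, the main mitochondrial deacetylase, followed with 22.2 ± 2.50 FPKM, at percentile 78.2. Sirt5, which removes succinyl, malonyl and glutaryl groups in mitochondria, reached 8.93 ± 1.122 FPKM. Sirt4, a mitochondrial regulator of glutamate dehydrogenase, reached 6.84 ± 0.827 FPKM. The 3 nuclear members lay lowest. Sirt1, a deacetylase of transcription factors and coactivators, averaged 5.33 ± 0.634 FPKM. Sirt7, a nucleolar sirtuin linked to ribosomal RNA synthesis, averaged 4.87 ± 0.855 FPKM. Sirt6, a chromatin deacetylase linked to DNA repair and glycolysis, averaged 2.84 ± 0.436 FPKM, at percentile 25.5. No member was at 0 in any library.

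**Figure D1:**
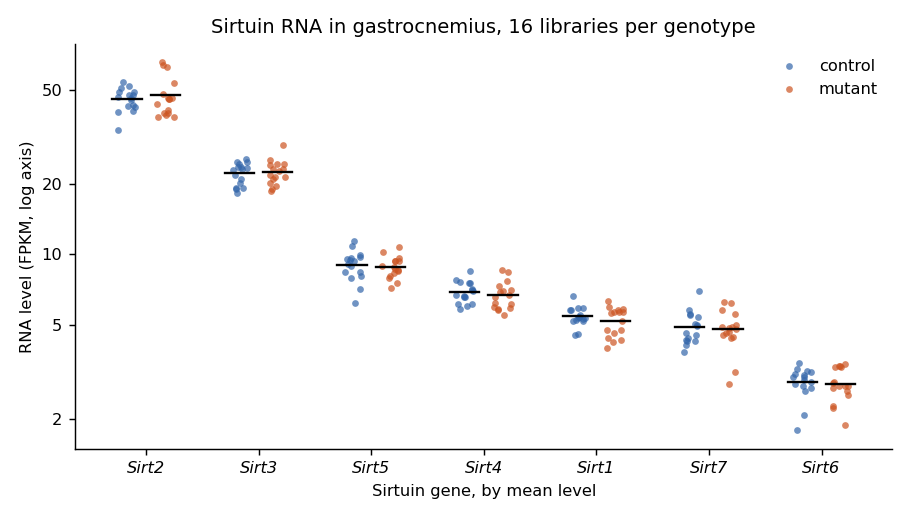
RNA level of each sirtuin gene in FPKM on a log axis, 1 point per library, 16 control and 16 mutant libraries, with black bars for the mean of each genotype. Sirt2 (33.7 to 65.4 FPKM) lies above every value of Sirt3, and Sirt6 (1.79 to 3.47 FPKM) is at the bottom.

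Most steps in this order were larger than their own SD over the 32 libraries. The ranges of neighbours overlapped in every step except Sirt2 to Sirt3 and Sirt3 to Sirt5. The range of Sirt2, 33.7 to 65.4 FPKM, did not overlap that of Sirt3, 18.2 to 29.2 FPKM, which in turn did not overlap that of Sirt5, 6.22 to 11.4 FPKM. On the log2(FPKM + 1) scale Sirt2 exceeded Sirt3 by 1.02 ± 0.197 (SD, n = 32), and Sirt3 exceeded Sirt5 by 1.23 ± 0.204, each in 32 of 32 libraries. Sirt5 exceeded Sirt4 by 0.34 in 28 libraries, Sirt4 exceeded Sirt1 by 0.31 in 29, and Sirt7 exceeded Sirt6 by 0.61 in 32. These 5 steps had an adjusted p of 1.2e-05 (two-sided permutation test by sign flips, 100000 draws, over 6 neighbour pairs), from the smallest p the draws allow. Sirt1 and Sirt7 were the close pair: Sirt1 was higher by 0.12 in 22 of 32 libraries (permutation p = 0.0250, also after adjustment). In mutants alone the Sirt1 to Sirt7 step was 0.099 in 9 of 16 libraries (permutation p = 0.263).

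Across the 32 libraries the family varied about as much as other genes of the same level. The coefficient of variation was lowest for Sirt3, at 11.2%, and 11.9% for Sirt1, against medians of 13.04% and 15.3% for genes within 1.5-fold of their mean FPKM. Sirt2 and Sirt7 varied more than that median, at 15.8% against 13.2% and at 17.5% against 15.7%. Sirt4, Sirt5 and Sirt6 lay below it, at 12.1%, 12.6% and 15.3%.

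In the deposited coordinates (mm10, per the submitters' processing notes) Sirt1 (entry XLOC_002098) spans chr10:63319005-63339035 and lies 1124 bases from Herc4. Sirt2 (XLOC_018591, chr7:28766752-28788665) carries the same coordinates as the little expressed Gm19897 (0.123 FPKM). Sirt3 (XLOC_020415, chr7:140857397-140882309) carries the same coordinates as Ric8, a gene on the opposite strand with 7.76 ± 0.679 FPKM, and lies 85 bases from Psmd13. The library kit marks the strand, but no source used here says whether reads were assigned by strand. The split between Sirt3 and Ric8 is therefore uncertain. Sirt4 (XLOC_016765, chr5:115478010-115484484) lies 22192 bases from Pxn. Sirt5 (XLOC_005262, chr13:43370716-43395203) lies 3173 bases from Nol7 and Ranbp9, separate entries with the same coordinates. Sirt6 (XLOC_002232, chr10:81621786-81627608) is 932 bases from Ankrd24, and Sirt7 (XLOC_004247, chr11:120618372-120625002) is 482 bases from Pcyt2.

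Facts of the whole series that bear on these genes were as follows. The muscle markers Ckm, creatine kinase (15672 to 22140 FPKM), and Mb, myoglobin (1956 to 4039 FPKM), were high in all 32 libraries, while skeletal actin, Acta1, is listed at 0 in 12 libraries against 17234 to 23914 FPKM elsewhere, so an exact 0 in these files can be a failed estimate. Tnnt3, the fast skeletal troponin T and 1 of the 16 muscle fibre markers used below, was never at 0 but ran from 569 to 33494 FPKM, so wide spreads of abundant muscle genes were not limited to exact zeros. Read depth is unknown, and relative depth, read from the steps between low values, ran from 0.806 to 1.34 of the mean. Clock genes were a check of the times: of 19 core clock genes 16 had a 24 h component, with Arntl at 15.97 ± 1.40 FPKM at ZT6 and 2.58 ± 2.64 at ZT18 (n = 8 per time). Dbp stood at 7.08 ± 2.70 FPKM at ZT6 and at 71.6 ± 28.1 at ZT12. The 4 sequencing pools are not mapped to samples in the sources used here. One set of indexes was used at both ZT0 and ZT12 and a second set at both ZT6 and ZT18. Where pools followed times, pool and time cannot be told apart.

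No sirtuin passed the test between genotypes when the 4 times were averaged. In limma's test on log2(FPKM + 1), with Benjamini-Hochberg adjustment over all genes tested, 0 of 7 members passed an adjusted p of 0.05, beside 0.0251% of all genes tested, and 0 of 7 had an unadjusted p under 0.05, beside 6.48%. Sirt1 averaged 5.47 ± 0.506 FPKM in controls and 5.196 ± 0.731 in mutants (n = 16 each), a difference of -0.07 on the log2 scale with a 95% interval from -0.16 to 0.03 (adjusted p = 0.770). Sirt2 averaged 45.7 ± 5.11 and 47.3 ± 9.13 FPKM, and its interval ran from -0.10 to 0.17. For Sirt3 the interval ran from -0.08 to 0.11, for Sirt4 from -0.15 to 0.07 and for Sirt5 from -0.13 to 0.10. The widest interval was that of Sirt7, from -0.18 to 0.12, with means of 4.93 ± 0.803 and 4.82 ± 0.927 FPKM, and that of Sirt6 ran from -0.15 to 0.11. A missed threshold does not show that the genotypes are alike, and these intervals bound the size. In bulk muscle, fewer cells of a type and less RNA per cell cannot be told apart.

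**Figure D2:**
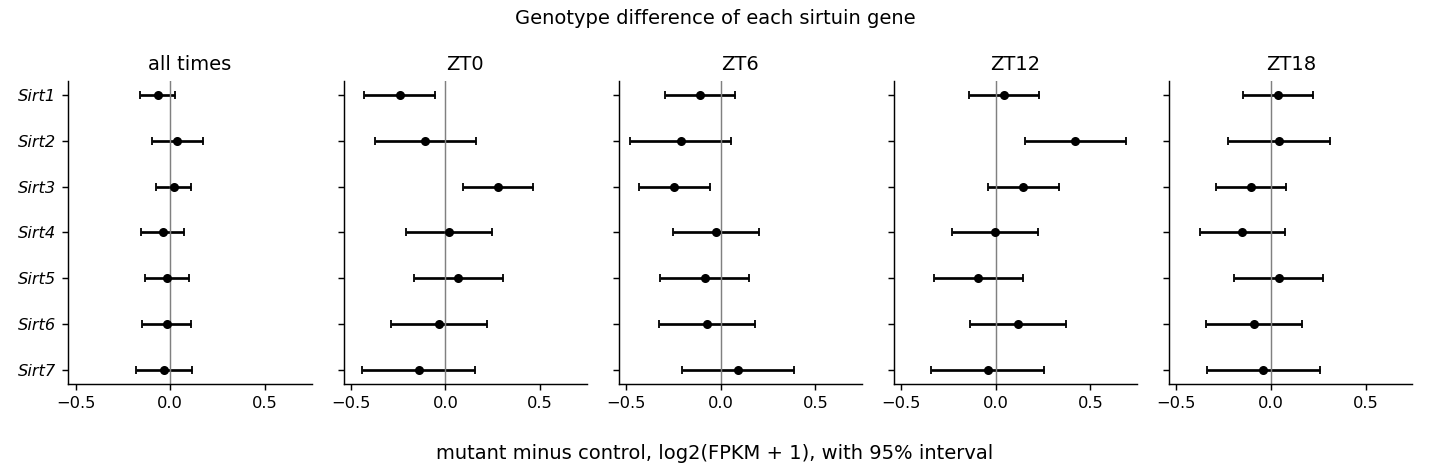
Difference of each sirtuin gene between mutants and controls, in log2(FPKM + 1), over all times and at each Zeitgeber time, as points with 95% intervals. Intervals that miss 0 are those of Sirt1 and Sirt3 at ZT0, Sirt3 at ZT6 and Sirt2 at ZT12, and none passed the adjusted threshold.

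At ZT0, the start of the light phase, Sirt1 was lower and Sirt3 higher in mutants, in both cases without passing the adjusted threshold. Sirt1 read 5.80, 6.65, 5.43 and 5.94 FPKM in the 4 controls and 4.62, 5.86, 4.76 and 4.33 in the 4 mutants. Of the mutants 3 of 4 lay below every control, and the groups overlapped through 1 mutant. The difference was -0.24 (SE 0.0908), with a limma adjusted p of 0.530. Sirt3 read 22.9, 19.1, 20.1 and 19.1 FPKM in controls and 25.3, 24.2, 29.2 and 21.01 in mutants, of which 3 of 4 lay above every control. Its difference was 0.28 (SE 0.0909, limma adjusted p = 0.461). Over the family 0 of 7 members passed the adjusted test, beside 0.0167% of all genes, and 2 of 7 had an unadjusted p under 0.05, beside 8.46%. No member had genotypes without overlap at ZT0, beside 2.61% of all genes.

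At ZT6, in the light phase, Sirt2 and Sirt3 were lower in every mutant than in every control. Sirt3 read 24.3, 25.5, 24.7 and 24.6 FPKM in controls and 21.4, 21.7, 21.4 and 18.6 in mutants. Controls thus lay within a narrow band and all 4 mutants below it, by 16.1% on average. Its difference was -0.24 (SE 0.0909, limma adjusted p = 0.471). Sirt2 read 47.6, 49.1, 47.7 and 45.1 FPKM in controls and 43.6, 38.5, 39.8 and 41.3 in mutants, which is 13.9% lower in the mean. Its difference was -0.21 (SE 0.131, limma adjusted p = 0.530), with a spread estimated over all 8 groups. These 2 of 7 members without overlap stand beside 12.1% of all genes. One member, Sirt3, had an unadjusted p under 0.05 (1 of 7, beside 10.4%), and 0 of 7 passed the adjusted test, beside 0.0167%. Several cell type marker lists had higher means in the ZT6 mutants and others had lower means, with no marker past the adjusted test. The macrophage and neutrophil markers (9 of 9 measured, 2 at 0 in at least 1 library) summed to 101.1 to 134 FPKM in controls and 155 to 253 in mutants, without overlap, and 9 of 9 were higher in the mean (median 0.55). All 13 measured lymphocyte markers (median 1.13) and all 7 measured fibroblast and matrix markers (median 0.46) were also higher in the mean, with sums of 2.19 to 24.5 against 2.53 to 74.3 FPKM and of 719 to 1076 against 974 to 1971 FPKM that overlapped. Adipocyte markers were higher in the mean in 11 of 13 (median 0.25) and endothelial markers in 6 of 8 (median 0.086). In the remaining lists fewer markers were higher in mutants. These were 0 of 6 tested for nerve and Schwann cells (median -0.31), 1 of 6 for smooth muscle (median -0.14) and 1 of 4 tested for satellite cells (median -0.014). The same held for 5 of 16 muscle fibre markers (median -0.10) and 3 of 10 slow fibre markers (median -0.20). With adipocyte and lymphocyte scores as covariates the ZT6 differences were -0.17 for Sirt3 (limma adjusted p = 0.810) and -0.17 for Sirt2 (adjusted p = 0.832). The part of the other marker lists was not tested.

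At ZT12, the start of the dark phase, Sirt2 showed the widest gap of the family. It read 42.9, 42.4, 40.6 and 33.7 FPKM in controls and 62.4, 63.5, 53.7 and 38.5 in mutants. The first 3 mutants listed lay above every control and the fourth lay inside the control range. The means were 39.9 ± 4.28 and 54.5 ± 11.6 FPKM, 36.6% higher in mutants, and the log2 difference was 0.42 (SE 0.131, 95% interval 0.15 to 0.69, limma adjusted p = 0.147). Without the mutant at 38.5 FPKM the difference was 0.58 and passed the test (adjusted p = 0.0166), and it also passed without mutant library 2 of ZT0, the highest Sirt2 value of all at 65.4 FPKM (adjusted p = 0.0433). The number of all genes called at ZT12 rose from 3 to 447 without that ZT12 library, so the change was not limited to Sirt2. Summed muscle fibre markers (16 of 16 measured, none at 0) ran from 69987 to 133818 FPKM in mutants and from 103319 to 149359 in controls at ZT12. Of these markers 4 of 16 were higher in the mean in mutants (median difference -0.24). Summed adipocyte markers (13 of 14 measured, none at 0) ran from 581 to 3382 FPKM in mutants and from 804 to 2295 in controls. Here 11 of 13 were higher in the mean in mutants (median difference 0.50). Summed nerve and Schwann cell markers (8 of 8 measured, 6 passing the filter) ran from 107 to 167 FPKM in mutants and from 96.8 to 155 in controls. Marker by marker, only 1 of the 6 tested was higher in the mean in mutants (median difference -0.076). Smooth muscle markers (6 of 6 measured, none at 0) did not overlap, at 99.6 to 133 FPKM in mutants and 137 to 150 in controls (median difference -0.35, 5 of 6 lower in the mean). Slow fibre markers (10 of 10 measured, none at 0) had a median difference of -0.58, with 9 of 10 lower and sums of 771 to 2318 FPKM in mutants and 1653 to 2623 in controls. Macrophage and neutrophil markers had a median of 0.45, with 8 of 9 higher and sums of 110 to 188 FPKM against 76.3 to 191. Lymphocyte markers were higher in 13 of 13 (median 0.38), with sums of 2.92 to 78.5 FPKM against 2.10 to 87.8. No marker of these lists passed the adjusted test at ZT12. With group means removed, Sirt2 had r = -0.418 with the muscle fibre marker score over 32 libraries. Their part in the Sirt2 value was not tested beyond a fit with adipocyte and lymphocyte scores as covariates, in which the Sirt2 difference was 0.45 (adjusted p = 0.143). At ZT12 0 of 7 members passed, beside 0.0251% of all genes, 1 of 7 had an unadjusted p under 0.05, beside 17.4%, and no member was without overlap, beside 7.4%.

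At ZT18, in the dark phase, the 95% interval of the genotype difference included 0 for every member. It ran from -0.38 to 0.07 for Sirt4 and from -0.34 to 0.26 for Sirt7. The differences ran from -0.15 for Sirt4 to 0.04 for Sirt2, all with a limma adjusted p of 0.9995. Sirt2 in mutants was narrow, at 45.6, 46.1, 45.8 and 48.1 FPKM, and lay inside the control values of 43.3, 40.1, 46.2 and 50.9. Sirt4 averaged 7.04 ± 0.809 FPKM in controls and 6.24 ± 0.744 in mutants, with 3 of 4 mutants below every control. For ZT18, 0 of 7 members passed the adjusted test, beside 0.0167% of all genes, 0 of 7 had an unadjusted p under 0.05, beside 2.88%, and none was without overlap, beside 2.51%.

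The genotype differences of Sirt2 and Sirt3 had opposite signs at different times, and the test of that dependence did not pass. Sirt3 was higher in mutants at ZT0 (0.28) and ZT12 (0.15) and lower at ZT6 (-0.24) and ZT18 (-0.11). These signs alternate with the 2 index sets, whose part was not tested. The test of the time dependence itself gave a limma adjusted p of 0.209. Sirt2 went from -0.11 and -0.21 at ZT0 and ZT6 to 0.42 and 0.04 at ZT12 and ZT18 (limma adjusted p = 0.260). No member passed this test, and neither did any other gene (0% of those tested), while 2 of 7 had an unadjusted p under 0.05, beside 14.1%. Without mutant library 3 of ZT0, the lowest of its group for Sirt3, Sirt3 passed with an adjusted p of 0.0488, among 93 genes called in that fit. Ric8, which shares the coordinates of Sirt3, had a limma adjusted p of 0.991 for time dependence.

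**Figure D3:**
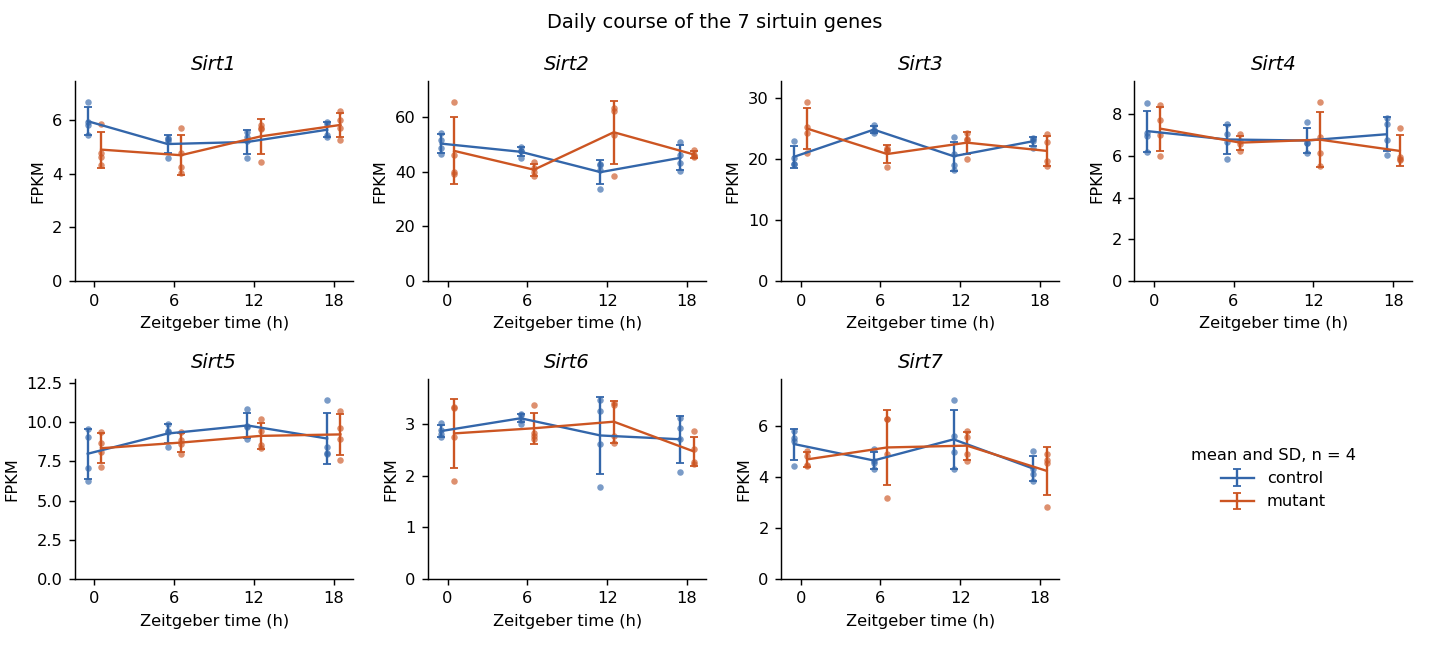
FPKM of the 7 sirtuin genes against Zeitgeber time, 1 point per library, with lines for the mean and bars for the SD of 4 libraries in each genotype. Control and mutant courses cross for every member. The gaps are widest for Sirt2, with means of 39.9 and 54.5 FPKM at ZT12, and Sirt3, with 24.8 and 20.8 FPKM at ZT6.

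No sirtuin passed a test of daily variation, and the fitted 24 h amplitudes of the family ran from 0.037 to 0.099 on the log2 scale. Over both genotypes 0 of 7 members passed the test between times, beside 11.6% of all genes, and 1 of 7 had an unadjusted p under 0.05, beside 26%. A 24 h component, the cosine and sine fitted to the 4 times, was called in 0 of 7 members, beside 11.4%, and had an unadjusted p under 0.05 in 1 of 7, beside 24%. In both tests that member was Sirt1. Sirt1 averaged 5.42 ± 0.790 FPKM at ZT0 and 4.89 ± 0.583 at ZT6, and then 5.28 ± 0.521 at ZT12 and 5.73 ± 0.367 at ZT18 (n = 8 each). Over both genotypes the lowest mean was in the light phase and the highest in the dark phase, with overlapping ranges. In controls alone Sirt1 was highest at ZT0, with 5.95 ± 0.512, 5.10 ± 0.339, 5.18 ± 0.431 and 5.64 ± 0.281 FPKM from ZT0 to ZT18 (n = 4 each). Its fitted peak in controls was at ZT21.6 (limma adjusted p = 0.348). Over both genotypes the fitted amplitude was 0.098 on the log2 scale with a peak at ZT18.5 (limma adjusted p = 0.108). With limma's library weights the adjusted p was 0.0165, in a fit that called 2136 of 11975 genes, against 1371 in the main fit. Without mutant library 0 of ZT6, the highest of its group, the adjusted p was 0.0310. For scale, the 24 h amplitude of Dbp was over 1.78 in every alternative fit.

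Sirt5 and Sirt6 had fitted amplitudes of similar size and did not pass. Sirt5 averaged 8.16 ± 1.22 FPKM at ZT0 and 9.46 ± 0.843 at ZT12 (amplitude 0.099, limma adjusted p = 0.252). Sirt6 averaged 3.02 ± 0.230 FPKM at ZT6 and 2.59 ± 0.374 at ZT18 (amplitude 0.084, adjusted p = 0.445). Sirt4 stayed between 6.64 and 7.24 FPKM in its 4 time means, Sirt3 between 21.5 and 22.8, and Sirt2 between 44.1 and 49.0. Sirt7 had its highest mean at ZT12, 5.34 ± 0.848 FPKM, and its lowest at ZT18, 4.27 ± 0.703 (adjusted p over the 4 times = 0.269). A 12 h component, ZT0 and ZT12 against ZT6 and ZT18, was called in 0 of 7 members, beside 0.0668% of all genes, and had an unadjusted p under 0.05 in 1 of 7, beside 14.1%. That member was Sirt7 (0.076, limma adjusted p = 0.344), and this contrast coincides with the 2 index sets, from which it cannot be told apart.

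Within each genotype the courses differed in which member came closest to the threshold. In controls 0 of 7 members had a 24 h component, beside 5.55% of all genes, and 1 of 7 had an unadjusted p under 0.05, beside 19.4%. It was Sirt2, with 50.4 ± 3.33, 47.4 ± 1.66, 39.9 ± 4.28 and 45.1 ± 4.57 FPKM from ZT0 to ZT18 (n = 4 each). All 4 ZT12 controls lay below all ZT0 and ZT6 controls. That separation was picked after the values were seen, and its share over all genes was not computed. The amplitude was 0.17 with a peak at ZT0.82 (limma adjusted p = 0.255, and 0.0442 in a fit of the control libraries alone). The fit of controls alone called 1221 of 11975 genes, against 665 in the main fit. In mutants 0 of 7 passed, beside 3.92%, and 1 of 7 had an unadjusted p under 0.05, beside 14.4%. It was Sirt1, with 4.90 ± 0.670, 4.69 ± 0.750, 5.39 ± 0.648 and 5.81 ± 0.462 FPKM from ZT0 to ZT18, an amplitude of 0.15 and a peak at ZT16.4 (limma adjusted p = 0.165). The Sirt1 value in mutants passed with library weights (adjusted p = 0.0459) and without mutant library 0 of ZT6 (adjusted p = 0.0487). With weights 752 of 11975 genes were called in mutants, against 470 in the main fit. A test of whether the 24 h component differed between genotypes called 0 of 7 members and 0% of all genes. In that test 1 of 7 had an unadjusted p under 0.05, beside 5.34%, namely Sirt2 (limma adjusted p = 0.880).

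Sirtuins differed in which genes they followed from library to library. These likenesses are Pearson r of log2(FPKM + 1) over 32 libraries, which share groups and depth, and are descriptions only. Sirt3 was most like Cyc1, the cytochrome of respiratory complex III (r = 0.845), Sod2, mitochondrial superoxide dismutase and a known SIRT3 substrate (r = 0.837), and Nudt8 (r = 0.818). Sirt2 was most like Lamp1, a lysosomal membrane protein (r = 0.896), 1110038B12Rik (r = 0.872) and Tmem182 (r = 0.870). Sirt7 was most like Grk6, a receptor kinase known from immune cells (r = 0.822), Sh3bgrl3 (r = 0.766) and Shisa5 (r = 0.760). For Sirt1 the 3 genes were Luc7l2, a splicing factor (r = 0.717), Tbk1 (r = 0.702) and Ppp1r3a, a glycogen-targeting subunit in muscle (r = 0.693). Sirt4 was closest to Grrp1 (r = 0.716), Rasa4 and Cyb5r2. Sirt5 was closest to Fam173b (r = 0.653) and Smyd5. Sirt6 was closest to Ncald (r = 0.637), Gga3 and Slc36a1.

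With group means removed, no pair of sirtuins varied together beyond the test over 21 pairs. The largest was Sirt2 with Sirt3 (r = 0.557, permutation p = 0.0113, adjusted p = 0.238, n = 32 libraries; Spearman rho = 0.438, permutation p = 0.0260, adjusted p = 0.274). Without the 2 libraries farthest from the median r was 0.369.

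Among libraries that held much lymphocyte RNA, Sirt7 was higher where there was more of it. The score is the mean log2 deviation of 13 lymphocyte markers (13 of 14 measured, 10 of them at 0 in at least 1 library), whose summed level ran from 1.20 to 87.8 FPKM. The libraries fell into separate sets, 17 with a low and 15 with a high score, a split made after the values were seen. The adjusted p-values here cover only the 14 lymphocyte relations within the sets. In those relations group means were not removed, and libraries were permuted without regard to group. Genotype and time, which were uneven in each set, were thus not separated from them. Over all 32 libraries with group means removed, Sirt7 had r = 0.722 with this score. That r was the largest of 70 relations between 7 members and 10 cell type marker scores. The tests within the sets used the same libraries and are not independent of that r. Among the other relations, given as descriptions, Sirt6 had r = 0.526 with endothelial markers and Sirt7 r = -0.437 with muscle fibre markers. Sirt7 lay between 2.83 and 5.40 FPKM (median 4.43) in the 17 low libraries and between 4.53 and 7.004 (median 5.52) in the 15 high ones. Within the high libraries Sirt7 followed the score (Pearson r = 0.824, permutation p = 0.00014, adjusted p = 0.00196 over 14 relations; Spearman rho = 0.721, permutation p = 0.00349, adjusted p = 0.0489). Without the 2 libraries farthest from the median score r was 0.754. In the low libraries r was 0.438 (permutation p = 0.0777, adjusted p = 0.218; rho = 0.350, permutation p = 0.168, adjusted p = 0.336), and 0.054 without the 2 farthest. High libraries numbered 2, 1, 2 and 0 of 4 in controls and 1, 3, 3 and 3 of 4 in mutants, from ZT0 to ZT18. With adipocyte and lymphocyte scores as covariates Sirt7 passed none of the 12 comparisons either. The other members showed no relation past the adjusted threshold in either set. In the lymphocyte relations Sirt6 came closest, with r = 0.625 in the low libraries (permutation p = 0.00748, adjusted p = 0.0524; rho = 0.488, permutation p = 0.0493, adjusted p = 0.317) and 0.192 without the 2 farthest.

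**Figure D4:**
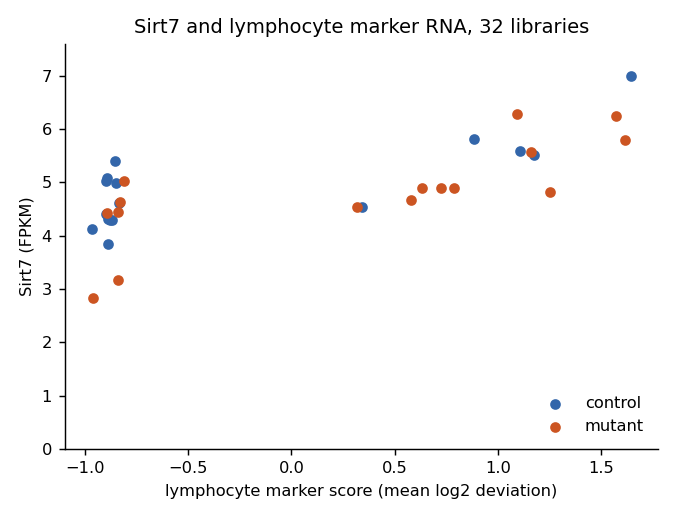
Sirt7 in FPKM against the lymphocyte marker score (mean log2 deviation of 13 markers), 1 point per library, coloured by genotype. The 17 libraries with low scores reach 5.40 FPKM at most, and among the 15 with high scores higher scores go with higher Sirt7, up to 7.004 FPKM.

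Genes that supply NAD to sirtuins included several with a daily course. The gene lists here and below were written with earlier results of these data known, so their shares are descriptions only. Of 11 tested genes of NAD synthesis 4 had a 24 h component (36.4%, beside 11.4% of all genes). Nmrk2, the muscle kinase that turns nicotinamide riboside into NMN, averaged 39.5 ± 22.6, 70.0 ± 19.0, 76.0 ± 28.9 and 22.1 ± 14.4 FPKM from ZT0 to ZT18 (n = 8 each). Its time means spanned 1.89 on the log2 scale, with a peak at ZT8.1 (limma adjusted p = 0.000247), and the 24 h component was called in controls (adjusted p = 0.0277) and in mutants (adjusted p = 0.0108). Nampt, the rate-limiting enzyme of the salvage route, had its lowest mean at ZT12, 55.4 ± 7.35 FPKM, and its highest at ZT18, 73.7 ± 14.1 (peak ZT20.7, adjusted p = 0.0268). Nadsyn1, the NAD synthetase, stood at 1.43 ± 0.251 FPKM at ZT0 and 1.92 ± 0.163 at ZT18 (adjusted p = 0.0323). Afmid, an enzyme of the route from tryptophan, stood at 1.69 ± 0.281 FPKM at ZT0 and 2.26 ± 0.174 at ZT6 (adjusted p = 0.0200). Nmrk1 (4.50 to 5.36 FPKM in its time means) and Nmnat3 (6.39 to 7.20 FPKM) did not pass. The calls of Nampt, Afmid and Nadsyn1 were lost in 2 of 41, 1 of 40 and 5 of 40 alternative fits, and that of Nmrk2 in controls in 10 of 42. In neither genotype alone was Nampt, Afmid or Nadsyn1 called. For Nampt the limma adjusted p was 0.519 in controls and 0.080 in mutants. At ZT18 Nampt averaged 70.1 ± 4.00 FPKM in controls and 77.2 ± 20.4 in mutants, with a highest value of 108.

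Other users of NAD and the clearance of nicotinamide included some genes with a daily course. Of 23 tested NAD consumers other than sirtuins 4 had a 24 h component (17.4%, beside 11.4% of all genes). Tiparp, a mono-ADP-ribosyltransferase, averaged 7.82 ± 1.14 FPKM at ZT0 and 12.3 ± 2.77 at ZT12 (limma adjusted p = 7.91e-05). Parp16, a transferase of the endoplasmic reticulum, averaged 4.43 ± 0.799 FPKM at ZT0 and 3.22 ± 0.900 at ZT12 (adjusted p = 0.00283). Parp4 (adjusted p = 0.00755) and Art5 (adjusted p = 0.00334) had their lowest means at ZT6. Cd38, an NAD glycohydrolase, did not pass in any comparison and read 4.00 ± 0.514 FPKM in controls and 6.44 ± 2.07 in mutants at ZT12 (limma adjusted p = 0.172). Of 9 genes of nicotinamide clearance and nucleoside steps 2 passed (22.2%, beside the same 11.4%), Aox1 (12.6 ± 1.54 FPKM at ZT0, 9.87 ± 1.15 at ZT6, adjusted p = 0.00283) and Nt5e (3.55 ± 0.709 at ZT0, 2.41 ± 0.318 at ZT12, adjusted p = 0.00976). Of 12 genes of NAD phosphorylation and redox transport 1 passed (8.33%, below the share over all genes), Got1 (adjusted p = 0.0373), whose call was lost in 21 of 41 alternative fits. The median 24 h amplitude was 0.13 in NAD synthesis, 0.097 in the consumers, 0.14 in clearance and 0.062 in redox transport, beside 0.073 over all genes tested.

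**Figure D5:**
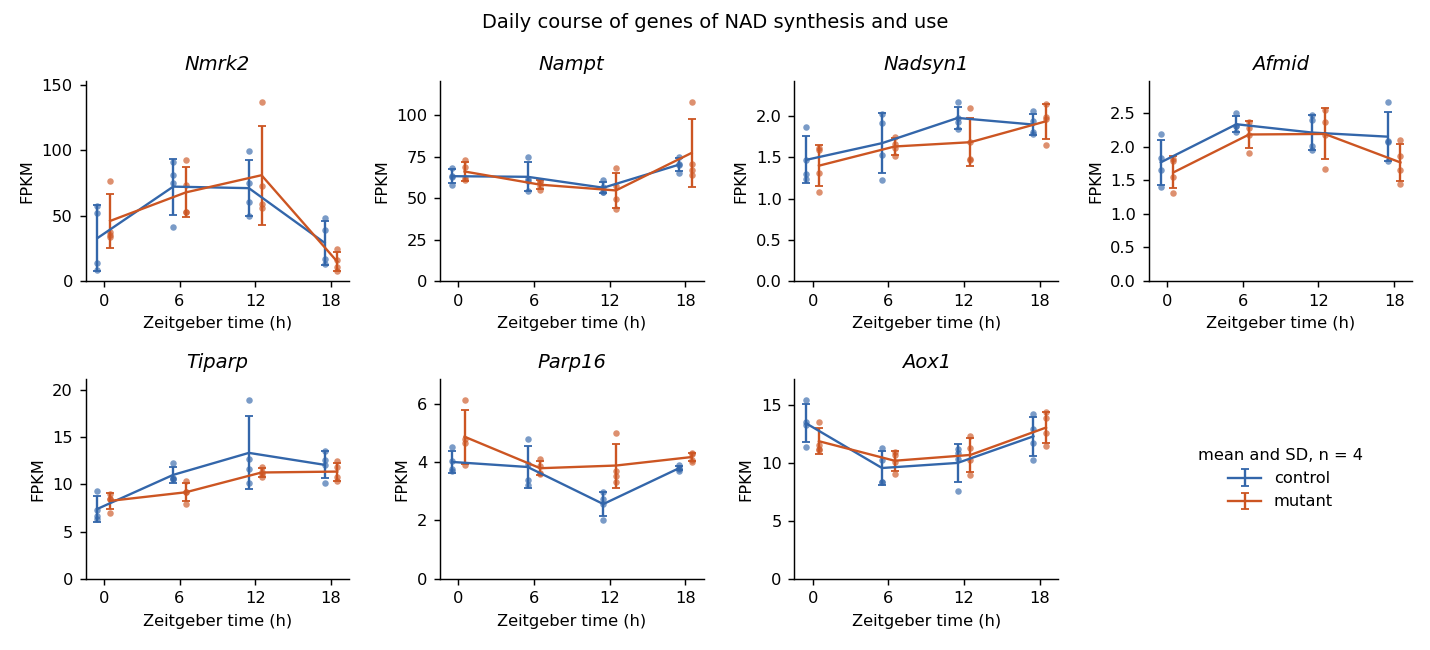
FPKM of 7 genes of NAD synthesis and use against Zeitgeber time, 1 point per library, with lines for the mean and bars for the SD of 4 libraries in each genotype. Nmrk2 is highest at ZT6 and ZT12 in both genotypes, and Nampt is highest at ZT18.

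Among partners and targets of the sirtuins, shares of daily genes lay from below to somewhat above the 11.4% of all genes tested. Of 33 tested regulators, partners and substrates of SIRT1, 4 had a 24 h component (12.1%, near that background): Myod1, the myogenic factor (25.2 ± 7.95 FPKM at ZT0, 10.5 ± 2.56 at ZT12, limma adjusted p = 3.38e-05), Srebf1, a lipogenic factor (40.1 ± 5.41 at ZT6, 26.3 ± 2.40 at ZT18, adjusted p = 0.000144), Hic1, a repressor of Sirt1 (4.04 ± 0.9753 at ZT0, 2.22 ± 0.461 at ZT18, adjusted p = 0.00231), and Foxo3 (adjusted p = 0.0187). Rps19bp1, an activator of SIRT1, and Ep300, an acetyltransferase, were called in controls (adjusted p = 0.0368 and 0.0202), calls that were lost in 12 of 42 and 4 of 42 alternative fits. No gene of these lists differed between genotypes in its course by the test of that difference. The coactivator gene Ppargc1a (8.93 to 10.4 FPKM in its time means), the SIRT1 inhibitor Ccar2 (7.58 to 8.26) and Foxo1 (4.89 to 7.02) did not pass. Of 31 tested substrates of the mitochondrial sirtuins 2 had a 24 h component (6.45%), among them Mlycd, a SIRT4 target that degrades malonyl-CoA (30.2 ± 3.11 FPKM at ZT6, 38.8 ± 3.39 at ZT18, adjusted p = 0.0118), and Opa1 passed the test between times (adjusted p = 0.0328), a call lost in 10 of 41 alternative fits. Sod2 and Idh2, both SIRT3 targets, did not pass, at 111 to 117 and 144 to 163 FPKM in their time means. Of 24 partners and targets of SIRT6 and SIRT7, 4 passed (16.7%): Pdk4 (98.1 ± 37.5 FPKM at ZT6, 267 ± 101.05 at ZT18, adjusted p = 0.00262), Fbl, the nucleolar methyltransferase fibrillarin (3.93 ± 0.723 at ZT6, 6.21 ± 0.893 at ZT18, adjusted p = 0.000967), Slc2a1 (adjusted p = 0.0189) and Nop56 (adjusted p = 0.0495, lost in 26 of 41 alternative fits). Ubtf did not pass. Of 10 zinc-dependent deacetylases, the other deacetylase family, 2 passed (20%), Hdac4 (7.36 ± 0.965 FPKM at ZT0, 5.59 ± 0.591 at ZT12, adjusted p = 0.0109, lost in 1 of 41 alternative fits) and Hdac7 (11.2 ± 2.001 at ZT0, 7.72 ± 0.516 at ZT18, adjusted p = 0.0209). The medians of the 24 h amplitude were 0.063, 0.043, 0.058 and 0.060 in these 4 lists, beside 0.073 over all genes.

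Between genotypes no gene of the 8 lists was called at any time or over all times. At ZT6 the mitochondrial substrates had a median difference of -0.13, with 5 of 31 higher in mutants, beside a median of -0.03 over all genes. At ZT0 24 of these 31 were higher, with a median of 0.076, beside -0.01 over all genes. At ZT12 all 12 tested genes of NAD phosphorylation and redox transport were higher in mutants, with a median of 0.21, beside 0.06 over all genes. These shifts were picked from 8 lists at 4 times, and the share of all genes that were higher was not computed. Sod2, the SIRT3 target, read 105 ± 12.0 FPKM in controls and 128 ± 23.9 in mutants at ZT0, and 120 ± 5.67 and 107 ± 9.52 at ZT6 (limma adjusted p = 0.524 and 0.527).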

How the data were processed

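Stranded mRNA libraries were sequenced from 1 end in 4 pools of 8 samples, per the labels' protocols. The authors deposited FPKM values, 1 per gene and library; mm10 was the build per the submitters' processing notes, and the aligner, quantifier and annotation are not given in the sources used here. FPKM are relative to each library's total, and 68.4% of low values were whole multiples of a step to within 0.1 (20% with no steps), so reads were not recovered. Columns named WT and TG were taken as control and mutant. Their library numbers match no mouse, and 0 columns of sample values were left unused.

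Values entered limma 3.58.1 (R 4.3.3) as log2(FPKM + 1), with 1 mean per group, a trended empirical Bayes prior (24 residual and 3.37 prior degrees of freedom) and Benjamini-Hochberg adjustment over 11975 entries. The scripts were tested on simulated data. Fold changes of low genes are understated on this scale. Correlations over libraries used 100000 permutations within groups or sets. The members and gene lists were chosen with earlier results of these data known, and p-values of the list genes are over all genes tested. Named were all members, the 3 genes most like each, the nearest gene, list genes called in any comparison (at most 6 per list) and fixed examples, of which Parp1, Glud1 and Hdac5 were not analysed here. Some genes that this rule names are not reported here. Alternatives covered the pseudocount, filter, scaling, library weights, composition scores, the prior, the samples in the fit and leaving out each library.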

Additional observations from a re-analysis of the deposited data

Results flagged for a closer look

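In 5 of 56 groups of 4 libraries, 1 library stood apart from the other 3 by Dixon's criterion, where chance gives about 1 in 20. Sirt1 was 4.60 FPKM in control library 1 of ZT6, below the others at 5.22 to 5.32, and 4.42 FPKM in mutant library 0 of ZT12, below the others at 5.65 to 5.80. Sirt3 was 18.6 FPKM in mutant library 3 of ZT6, below the others at 21.4 to 21.7, in the same group whose mutants all lay below the controls. Sirt4 was 7.35 FPKM in mutant library 0 of ZT18, above the others at 5.81 to 5.92. Sirt5 was 11.4 FPKM in control library 0 of ZT18, above the others at 7.94 to 8.42.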

How the results depend on the processing

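The 84 values of the members (7 genes in 12 comparisons) were recomputed in 3462 gene and setting combinations, of which 9 passed the threshold that no main value passed. The number of members called at ZT12 ranged from 0 to 1 over fits that leave out 1 library, and was 1 (Sirt2) without mutant library 3 of ZT12 or mutant library 2 of ZT0. The number whose genotype difference depends on time ranged from 0 to 1, with Sirt3 called without mutant library 3 of ZT0. With library weights 1 member, Sirt1, was called between times, in the 24 h component over both genotypes and in that of mutants, and the last 2 counts also ranged from 0 to 1 over left-out libraries. Of all genes 2003, 2136 and 752 were called in these comparisons with weights, against 1395, 1371 and 470 in the main fit. With the control groups alone in the fit 1 member, Sirt2, had a 24 h component in controls. That fit called 1221 of 11975 genes, against 665 in the main fit. The step from Sirt1 to Sirt7 was 0.099 in mutants only (permutation p = 0.263). Of 1738 member differences under alternatives, none of which passed in the main values, 51 changed sign. The causes were not tested. Counts over all genes were less stable: at ZT6, 2 genes were called and 232 with library weights; at ZT12, 3 and 447 without mutant library 3; for the time dependence, 0 and 93 without mutant library 3 of ZT0. Over settings other than leaving out a library, genes called ranged from 831 to 2003 between times (main 1395), from 799 to 2136 for the 24 h component over both genotypes (main 1371), from 390 to 2233 for that of controls (main 665) and from 249 to 752 for that of mutants (main 470). The genotype counts, 3 averaged over times and 2 each at ZT0 and ZT18, ranged from 1 to 4, 0 to 3 and 0 to 3, the time dependence from 0 to 42, and the 12 h component, 8, from 1 to 11, and up to 20 without mutant library 3 of ZT0. No paired analysis was possible because the columns carry library numbers that match no label and the replicate numbers follow accession order. A fit of only the compared groups is no alternative where a comparison uses all 8. Depth is unknown, so no counting interval was given.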
